A study of Homo sapiens and Mus musculus with 20 samples.

Results

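Satb1 without its homeodomain occupied 50537 peaks in MCF10A cells, and 8654 of them (17.1%) were found with that construct only. These dHD-only sites were chosen by overlap of peak calls: a peak of the dHD list (∆HD, Satb1 lacking the homeodomain) was a member when it shared no base with any peak of the full-length (FL) list and none with any peak of the N-C1 list. The measured values that chose them were therefore the calls in those 3 lists, and peak strength in the dHD list is given below only as a description. All comparisons rest on 1 peak list per condition, so no test between conditions could be run. Intervals in brackets are 95% intervals, exact binomial for shares and across peaks for means, and they cover counting error only.

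Satb1 is a nuclear protein that organises chromatin and binds A/T-rich DNA. It carries an N-terminal oligomerization domain, a pair of CUT domains that contact DNA, and a C-terminal homeodomain. CUT domains and homeodomains are both DNA-binding folds, and in CUT-homeodomain proteins they can contribute together to the choice of sites. Satb1 is best known in thymocytes, where base-unpairing regions rich in A and T are its classical targets.

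MCF10A is an immortalized, non-tumorigenic human mammary epithelial line without Satb1 of its own. The cells carried Satb1 fused at its C terminus to eGFP, delivered by lentivirus under a cumate-switch promoter and sorted through the same fluorescence gate, and an antibody to GFP was used for ChIP. The ChIP groups were FL, dHD, N-C1 (the N-terminal domain with the first CUT domain), FL after camptothecin and FL after ICRF-193, the drugs being given for 2 h. Camptothecin poisons topoisomerase I and ICRF-193 inhibits topoisomerase II. ATAC-seq was made on native MCF10A and on cells expressing FL Satb1. The lists held 22877 FL peaks, 62856 N-C1 peaks, 24475 camptothecin peaks, 37350 ICRF-193 peaks, 175989 native ATAC-seq peaks and 206170 ATAC-seq peaks of Satb1-expressing cells. The study's text gives the peak-calling threshold in more than one way and peak numbers that differ from the deposited N-C1 and dHD lists, so the 8654 sites hold for the lists as deposited. The labels name no clone, and read depth was not given in the peak lists, so how far depth sets the presence of a call in one list and its absence from another was not tested.

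The other dHD peaks served as the comparison. Of these, 20153 overlapped an FL peak (FL-shared) and 21730 overlapped an N-C1 peak but no FL peak (N-C1-shared). Another set, 19151 N-C1 peaks that overlapped neither an FL nor a dHD peak (N-C1-only), was the mirror image of the members, called in a single list as well. Sequence was read from hg19.

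A few members show what these sites look like. Each line gives the 200 bases at the peak midpoint, plus strand of hg19, with capitals marking matches to the consensus YTAWTAR, a 7-letter palindromic pattern with a pyrimidine (Y) first, a purine (R) last and either A or T at W. The CNEP1R1 site was the strongest member, the RPS27L and ADAMTS3 sites were strong members called again after both drugs, the CDH9 and MRPS9 sites were among those with the most matches, and the DIP2C site, which has no match, was the strongest of those in both ATAC-seq lists.
CNEP1R1 site, chr16:50012604-50012803: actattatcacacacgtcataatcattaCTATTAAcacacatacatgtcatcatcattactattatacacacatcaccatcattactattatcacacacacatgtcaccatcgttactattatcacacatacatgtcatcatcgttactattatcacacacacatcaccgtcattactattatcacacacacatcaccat
RPS27L site, chr15:63436392-63436591: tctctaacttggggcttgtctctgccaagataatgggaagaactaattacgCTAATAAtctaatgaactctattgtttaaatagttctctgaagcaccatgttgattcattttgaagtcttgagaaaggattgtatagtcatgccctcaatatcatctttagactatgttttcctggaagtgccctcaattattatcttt
ADAMTS3 site, chr4:73214755-73214954: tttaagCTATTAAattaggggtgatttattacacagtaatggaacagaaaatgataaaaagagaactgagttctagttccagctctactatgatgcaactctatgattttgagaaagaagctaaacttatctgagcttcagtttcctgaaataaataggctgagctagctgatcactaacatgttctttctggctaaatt
CDH9 site, chr5:26505800-26505999: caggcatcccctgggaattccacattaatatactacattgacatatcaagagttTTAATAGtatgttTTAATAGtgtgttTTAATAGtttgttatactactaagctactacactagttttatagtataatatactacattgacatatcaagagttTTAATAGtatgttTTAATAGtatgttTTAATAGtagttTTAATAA
MRPS9 site, chr2:105671247-105671446: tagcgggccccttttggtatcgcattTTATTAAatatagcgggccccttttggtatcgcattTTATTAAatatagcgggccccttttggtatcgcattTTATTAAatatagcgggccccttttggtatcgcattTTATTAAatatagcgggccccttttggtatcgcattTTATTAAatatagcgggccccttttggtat
DIP2C site, chr10:471180-471379: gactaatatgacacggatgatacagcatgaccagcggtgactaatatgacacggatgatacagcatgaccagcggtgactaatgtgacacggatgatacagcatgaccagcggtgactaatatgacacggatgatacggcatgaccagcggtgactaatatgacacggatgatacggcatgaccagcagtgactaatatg
In some of them the letters recur. In the 400 bp at the midpoint of the MRPS9 site, bases 36 positions apart were identical throughout (100% identity), at the DIP2C site the identity was 90.3% at an offset of 38, and at the CNEP1R1 site it was 55.8% at an offset of 31. The RPS27L and ADAMTS3 sites were of another kind, with at most 32.1% and 34.2% identity at any offset from 10 to 100.

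Few members passed a cut of 70% identity at a single offset, set after these sequences had been seen. The CNEP1R1 site, whose letters recur above, fell below it at 55.8%, so looser repeats were not counted. By this measure, 43 of 8654 members (0.497%, 0.360 to 0.669) were self-repeating. The share was 0.0552% (0.0285 to 0.0964) in N-C1-shared peaks, 0.278% (0.210 to 0.361) in FL-shared peaks and 0.0104% (0.00126 to 0.0377) in N-C1-only peaks. Every 200th 400 bp tile of hg19 gave 0.227% (0.180 to 0.282). The interval of the members lay above those of N-C1-shared peaks, N-C1-only peaks and tiles and touched that of FL-shared peaks. Annotated repeats were not analysed here. The 43 sites had a mean A/T content of 58.4% and 10 of them lay in native ATAC-seq peaks. Leaving them out moved the members' mean number of matches to 1.74 and their mean A/T content to 67.2%, the same rounded values as with them.

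The members were weak and narrow peaks. Fold enrichment, the ratio of ChIP signal to the local background given by the peak caller, had a median of 4.89 in the members with an interquartile range of 4.42 to 5.56. It ran from 2.08 to 12.2. The median was 5.84 in N-C1-shared peaks and 9.91 in FL-shared peaks of the same list. In their own list, the N-C1-only peaks had a median of 4.83. The median width was 351 bp in the members, 397 bp in N-C1-shared and 512 bp in FL-shared peaks. The shortest peak of the dHD list was 307 bp and that of the N-C1 list 242 bp, so widths from different lists were not compared. Raising the minimum fold enrichment of a dHD peak to 5 left 3631 sites. Median −log10 q was 6.63 in the members, against 9.97 and 25.8 in the same order.

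**Figure D1:**
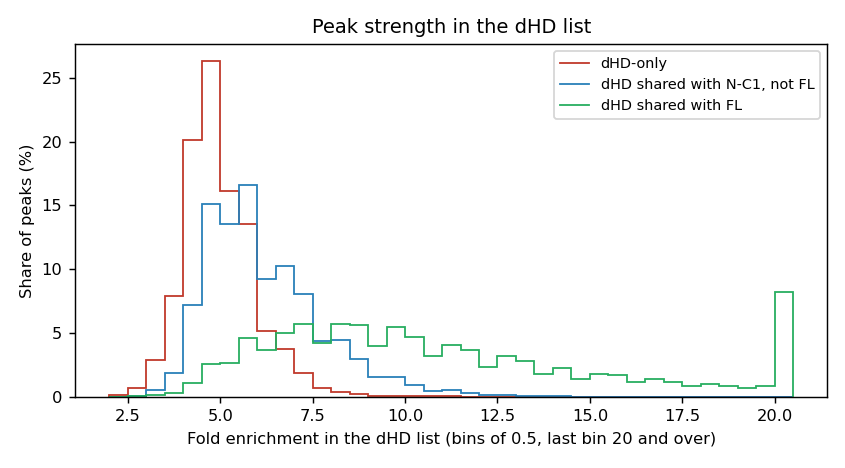
Share of peaks (%, y axis) by fold enrichment in the dHD list (x axis, bins of 0.5, the last bin holding 20 and over) for the 3 classes of dHD peaks. The members crowd around their median of 4.89 and end at 12.2, whereas FL-shared peaks spread around 9.91 and reach the last bin.

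The 5 strongest members were near CNEP1R1, FAM230A, ZNF516 and UQCRFS1 and within PLA2R1. CNEP1R1, a partner of a nuclear envelope phosphatase, lay 45598 bp from the site at chr16:50012419-50012989, which had a fold enrichment of 12.2. The site nearest FAM230A (chr22:20638620-20639224) reached 11.9, with 1 match and an A/T content of 57.5%. It was self-repeating, with 72.4% identity at an offset of 81. ZNF516, a zinc-finger gene, was nearest to chr18:74055975-74056721 (11.3, no match). The site nearest UQCRFS1, which encodes the Rieske protein of respiratory complex III, was at chr19:28260766-28262250 (11.1). It lay 1442460 bp from a transcription start and 0.530 Mb from the centromere gap. PLA2R1, the phospholipase A2 receptor gene, held an intronic site at chr2:160903064-160903587 (10.6, 2 matches). None of these 5 overlapped an ATAC-seq peak or a peak from drug-treated cells, and their A/T contents, from 51.0% to 66.5%, were all below the mean of the members. Self-identity was 69.1% at the ZNF516 site, 55.8% at CNEP1R1, 52.1% at UQCRFS1 and 32.6% at PLA2R1. Self-repeating sites were 1.70% (0.554 to 3.92) of 294 members with a fold enrichment of 7 or more. Below a fold enrichment of 5 they were 0.478% (0.306 to 0.710).

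Most members stood well apart from FL and N-C1 peaks. The median distance was 35258 bp to the nearest FL peak and 12436.5 bp to the nearest N-C1 peak. Of the 8654, 574 (6.63%) had an FL or N-C1 peak within 1 kb, 3209 (37.1%) between 1 and 10 kb, 4513 (52.1%) between 10 and 100 kb and 358 (4.14%) farther away. The members just inside the rule were an intronic site of MMRN1 at chr4:90833494-90833806, which lay 6 bp from an N-C1 peak, and an intronic site of COX10 at chr17:14036693-14037092, which lay 9 bp from one. Their own fold enrichments were 3.86 and 4.80. Just outside it, a peak in SLC38A11 at chr2:165797367-165797708 shared 1 bp with an FL peak (5.75) and a peak nearest TENM3 at chr4:182036690-182037125 shared 5 bp with an N-C1 peak (4.05). The COX10 member and the SLC38A11 peak both overlapped peaks of both drug lists.

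The 358 members beyond 100 kb stood apart in base composition. Mean A/T content was 67.0% within 1 kb, 67.7% from 1 to 10 kb, 67.1% from 10 to 100 kb and 63.8% farther away. In the flanks it was 63.8%, 62.5%, 60.8% and 55.3% in the same order. Recovery after ICRF-193 was 11.8% (9.32 to 14.8), 10.1% (9.08 to 11.2), 7.69% (6.93 to 8.50) and 2.51% (1.16 to 4.72). Overlap with native ATAC-seq peaks was between 4.70% and 5.38% in the first 3 bins and 10.9% (7.86 to 14.6) in the last.

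The consensus was present in most members, at a lower number than in the other dHD peaks. In 400 bp at the midpoint, 7633 of 8654 members (88.2%, 87.5 to 88.9) held at least 1 match on either strand, since the pattern is its own reverse complement. The share was 93.6% in N-C1-shared, 96.3% in FL-shared and 93.4% in N-C1-only peaks. Of 7146352 tiles of 400 bp over hg19, 25.8% held a match. The mean number was 1.74 (1.72 to 1.77) in the members. N-C1-shared peaks had a mean of 2.03, FL-shared 2.68, N-C1-only 1.91 and tiles 0.322. The difference from N-C1-shared peaks was −0.290 matches (−0.317 to −0.263) and that from FL-shared peaks −0.935 (−0.965 to −0.904). Numbers of 3 or more matches were found in 22.8% of members, 31.4% of N-C1-shared and 52.3% of FL-shared peaks.

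**Figure D2:**
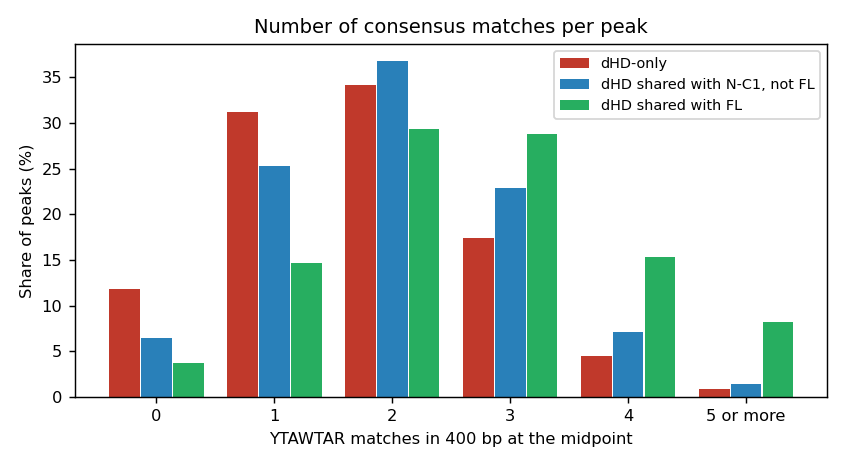
Share of peaks (%, y axis) by the number of YTAWTAR matches in 400 bp (x axis) for dHD-only sites, dHD peaks shared with N-C1 and not FL, and dHD peaks shared with FL. Among the members, 11.8% had 0 and 0.901% had 5 or more, against 3.70% and 8.18% of FL-shared peaks.

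The lower number was also seen among peaks of like strength. Between fold enrichments of 4 and 5, the members averaged 1.75 matches (4020 sites), N-C1-shared peaks 1.97 and FL-shared peaks 2.59. Between 7 and 9 the values were 1.78 (275 sites), 2.11 and 2.52. Within the members, strength and number of matches were weakly linked. Those with a fold enrichment of 5 or more averaged 1.78 matches (1.75 to 1.82) and those below 5 averaged 1.72 (1.69 to 1.75), while the median fold enrichment was between 4.82 and 4.99 at every number of matches. The lower share with a match was also seen among windows of like base composition. With an A/T content from 65% to under 70%, a match was found in 89.9% of 2832 members, 93.5% of N-C1-shared and 95.6% of FL-shared peaks, and in 36.8% of tiles.

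The matches lay at the peak centres. In bins of 20 bp the members reached 7.90 matches per kb next to the midpoint, against 0.820 in the bin centred 990 bp to its left. Of the 4 forms of the match, some were shifted alike in members and FL-shared peaks and some were not. CTAATAA (reverse complement TTATTAG) made up 31.1% of the 15097 matches in members and 22.5% of all matches in hg19, a ratio of 1.38, and the ratio in FL-shared peaks was 1.36. CTATTAA was under the genome share in both, with ratios of 0.758 and 0.673. CTAATAG was above its genome share of 11.1% in members, at 12.1%, and below it in N-C1-shared (10.3%) and FL-shared peaks (9.44%). TTAATAA, the commonest form at 44.8% of matches in hg19, made up 40.4% of matches in members and 45.4% in FL-shared peaks.

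Pairs of matches showed a difference of another kind. Among sites with exactly 2 matches, the distances between match starts were sorted into windows near whole turns of the helix (8 to 12 and 18 to 22 bp) and between them (13 to 17 and 23 to 27 bp). These windows were chosen after the distances had been seen. In the members, 274 of 540 pairs (50.7%, 46.4 to 55.04) were in the first kind. The share was 59.8% (57.6 to 62.1) in N-C1-shared, 63.9% (61.7 to 66.2) in FL-shared and 67.1% (65.1 to 69.2) in N-C1-only peaks. The median distance between both matches was 76 bp in members, 60 bp in N-C1-shared and 44 bp in FL-shared peaks.

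The 1021 members without a match held words close to it. Counting 6-letter words in the 100 bp at the midpoint against the flanks (1000 to 2000 bp away), with both strands joined, the word CATTAG was 7.74 times as frequent at their centres. The word TAATTA, the core of many homeodomain sites, was 6.69 times as frequent there. Of these 1021 members, 26 (2.55%, 1.67 to 3.71) were self-repeating, and their words were counted with the rest. Over all members, CTAATA was the word with the largest ratio, at 7.50 times, and in FL-shared peaks it also led, at 13.04 times. In the 400 bp window, TAATTA was present in 45.6% of members, 49.2% of N-C1-shared and 54.96% of FL-shared peaks and in 16.3% of tiles.

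The members were A/T-rich but less so than the other classes. The 200 bp at the midpoint had a mean A/T content of 67.2% (67.1 to 67.3), with an SD across sites of 5.80. N-C1-shared peaks had 69.7%, FL-shared 71.1%, N-C1-only 70.8% and tiles 59.1%. The difference from FL-shared peaks was −3.91 percentage points (−4.05 to −3.77) and that from N-C1-shared peaks −2.49 (−2.63 to −2.36). The DNA around the members was also poorer in A/T: the flanks had 61.4%, against 62.7% in N-C1-shared and 62.4% in FL-shared peaks. The step from flank to peak was 5.76 points in the members, 6.97 in N-C1-shared and 8.66 in FL-shared peaks. Within 20 bp of a match, the match itself left out, A/T content was 68.0% in members, 70.3% in N-C1-shared and 72.7% in FL-shared peaks.

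**Figure D3:**
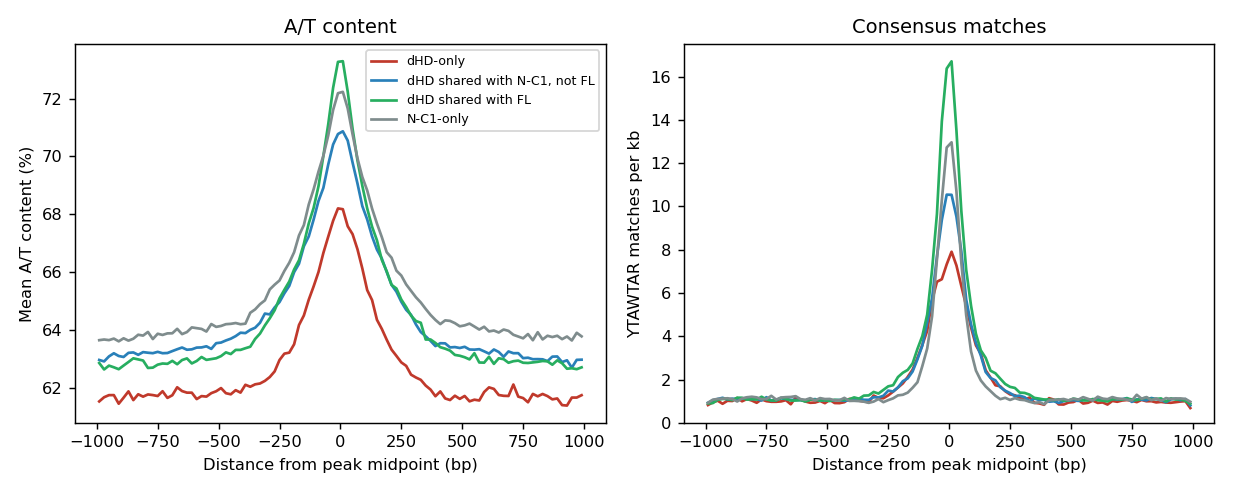
Mean A/T content (%, left) and YTAWTAR matches per kb (right) in 20 bp bins against distance from the peak midpoint (bp), for dHD-only sites, both other classes of dHD peaks and N-C1-only peaks. The members have the lowest centre and the lowest flanks in A/T content, and their match density peaks at 7.90 per kb.

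Recovery after topoisomerase inhibition was low. It was counted as overlap by at least 1 bp with a peak of FL Satb1 after 2 h of drug, in libraries that the rule did not use. After camptothecin, 245 of 8654 members (2.83%, 2.49 to 3.20) were called, against 39.9% of all dHD peaks. After ICRF-193, 748 (8.64%, 8.06 to 9.26) were called, against 54.7% of all dHD peaks. FL-shared peaks were recovered at 81.8% and 92.8%, but they were in the untreated FL list by definition, so the classes also absent from it are the nearer comparison. N-C1-shared peaks were recovered at 15.7% and 37.8%, and N-C1-only peaks at 5.34% and 15.3%. Tiles overlapped at 0.679% and 1.04%. In total 806 members were in at least 1 of both lists and 187 in both, so 76.3% of those recovered after camptothecin were also recovered after ICRF-193. The same held for 19221 of the 20145 dHD peaks recovered after camptothecin, 2804 of 3416 N-C1-shared and 765 of 1022 N-C1-only peaks. When FL and N-C1 peaks had to share 50% of both lengths to count as shared, recovery of members was 6.13% and 12.8%. When treated peaks had to reach a fold enrichment of 5 it was 1.32% and 4.47%.

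Seen from the treated lists, the members were a small part of what appeared. Of 5844 camptothecin peaks with no FL peak of untreated cells at their place, 244 (4.18%, 3.68 to 4.72) overlapped a member, 59.1% overlapped both a dHD and an N-C1 peak without a member and 17.4% an N-C1 peak alone. Of 16188 such ICRF-193 peaks, 744 (4.60%, 4.28 to 4.93) overlapped a member. The treated peaks at members had a median fold enrichment of 4.83 after camptothecin and 5.19 after ICRF-193, near those at N-C1-shared peaks (5.01 and 5.38) and below those at FL-shared peaks (7.59 and 9.29).

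The recovered members were the A/T-rich ones. Those in both drug lists had a mean A/T content of 74.8% (74.2 to 75.4), above the mean of FL-shared peaks, whereas those in neither had 66.6% (66.5 to 66.7). After ICRF-193, recovery was 0.419% (0.0865 to 1.22) of 716 members with an A/T content from 55% to under 60%, 3.85% (3.17 to 4.62) of 2832 from 65% to under 70%, 11.8% (10.5 to 13.2) of 2334 from 70% to under 75% and 44.8% (41.1 to 48.5) of 728 at 75% and over. After camptothecin, the shares in the same bins were 0.140%, 0.883%, 3.51% and 16.8%. Against N-C1-only peaks, the members' recovery after ICRF-193 was lower from 65% to under 70% (6.77% in N-C1-only) and from 70% to under 75% (15.6%, 14.9 to 16.4) and higher at 75% and over (36.8%, 35.0 to 38.6). After camptothecin the intervals in the last bin overlapped, at 14.1 to 19.7 in members and 13.6 to 16.2 in N-C1-only peaks. N-C1-shared peaks were recovered more often than members, at 70.2% (68.4 to 71.9) in the last bin after ICRF-193. From an A/T content of 60% upward the share rose from bin to bin in all 4 classes after either drug. The treated lists were themselves A/T-rich, with means of 73.5% after camptothecin and 73.3% after ICRF-193 against 72.4% for the untreated FL list. Whether base composition of the libraries had a part in this was not tested.

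**Figure D4:**
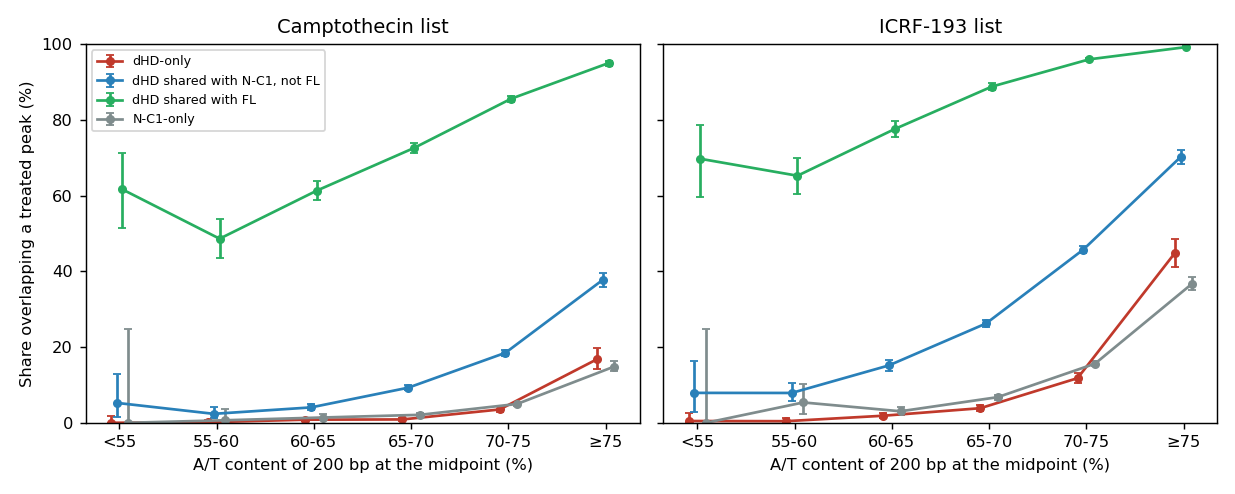
Share of peaks (%, y axis) overlapping a peak of the camptothecin list (left) or ICRF-193 list (right), by A/T content of the 200 bp at the midpoint (%, x axis), with exact 95% binomial intervals. The members rise from under 1% below an A/T content of 60% to 16.8% and 44.8% in the last bin.

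Recovery also rose with the number of matches. After ICRF-193 it was 4.31% (3.15 to 5.74) of the 1021 members without a match, 9.25% (8.23 to 10.4) of those with 2, 15.9% (12.4 to 19.9) of those with 4 and 24.4% (15.3 to 35.4) of the 78 with 5 or more. After camptothecin the shares were 1.47%, 2.74%, 5.47% and 10.3%. Of the 78 members with 5 or more matches, 11 (14.1%, 7.26 to 23.8) were self-repeating, against 0.497% of all members. Among members with an A/T content of 75% and over, recovery after ICRF-193 was 34.7% of 245 with at most 1 match and 49.9% of 483 with 2 or more. Stronger members were recovered more often too: between fold enrichments of 4 and 5 the share after ICRF-193 was 7.11%, and between 7 and 9 it was 17.8%, against 23.1% and 53.1% of N-C1-shared peaks.

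The strongest members in both drug lists were an intronic site of ADAMTS3, a procollagen-processing protease gene, and sites nearest RPS27L, FLRT2, EDIL3 and MKLN1. The ADAMTS3 site (chr4:73214643-73215067) had a fold enrichment of 9.15 in the dHD list, 5.19 after camptothecin and 5.38 after ICRF-193, in lists scaled to their own backgrounds. It held 4 matches in 400 bp, 1 of them in the 200 bp printed above. The site nearest RPS27L, a ribosomal protein-like gene, was at chr15:63436261-63436723 and had 8.96, 5.37 and 7.53 in the same order. FLRT2 and EDIL3 encode cell adhesion and matrix proteins, and the sites nearest to them, at chr14:85478902-85479318 and chr5:84116351-84116860, were 517389 and 435923 bp from a transcription start. MKLN1 was nearest to chr7:130773332-130773824, with an A/T content of 75%. None of these 5 overlapped an ATAC-seq peak.

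The members with the most matches were an intronic site of MRPS9, a mitochondrial ribosomal protein gene, with 11 in 400 bp and 30 in the whole peak (chr2:105670646-105672048), a site nearest MAEA, an E3 ligase subunit gene, with 8 (chr4:1267313-1268235), and a site nearest CDH9, a cadherin gene, with 7 (chr5:26505715-26506085). The MRPS9 and MAEA sites were self-repeating, with A/T contents of 59.5% and 52.5%. The CDH9 site was below the cut, with at most 44.2% identity, at an offset of 13. Even so, a long stretch holding TTAATAG recurs in its sequence printed above, so it was not free of repeats. It had an A/T content of 75% and was recovered after both drugs. The MRPS9 site was recovered after ICRF-193 and the MAEA site after neither.

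Few members lay in open chromatin. In native cells 478 (5.52%, 5.05 to 6.03) overlapped an ATAC-seq peak, against 4.6% of all dHD peaks, and in cells expressing FL Satb1 582 (6.73%, 6.21 to 7.27) did, against 5.46% of all dHD peaks. Of the tiles, 8.21% and 11.8% overlapped a peak of these lists. The members' shares were above those of N-C1-shared (4.19% and 4.61%) and N-C1-only peaks (3.50% and 3.63%), with intervals that did not overlap. For FL-shared peaks they were 4.63% and 5.82%. Within bins of A/T content this order did not always hold. From 65% to under 70%, native shares were 4.77% in members, 4.75% in N-C1-shared and 4.58% in N-C1-only peaks. From 70% to under 75% they were 2.83%, 3.31% and 2.94% in the same order. Members were highest from 60% to under 65% (8.69%, 7.03% and 7.06%) and from 55% to under 60% (10.8%, 6.89% and 7.38%). Among members with a fold enrichment of 5 or more, the native share was 4.35% (3.71 to 5.07). The shares of the other classes were not cut at 5, and values at like strength are given below. In the members, 399 overlapped peaks of both ATAC-seq lists, 183 only the list of Satb1-expressing cells and 79 only the native list, which holds fewer peaks. With the summit itself required inside the ATAC-seq peak, the shares were 3.47% and 4.68%. The weakest peaks were open most often in every class of dHD peaks. Below a fold enrichment of 4, 10.8% of 1003 members, 9.61% of 541 N-C1-shared and 17% of 100 FL-shared peaks overlapped a native peak. Between 5 and 6, 3.97% (3.25 to 4.80) of 2567 members did, 3.802% (3.35 to 4.29) of N-C1-shared and 3.603% of FL-shared peaks. Between 6 and 7 the shares were 5.97%, 3.75% and 3.76% in the same order. Between 4 and 5 they were 5.27%, 4.43% and 4.85%. Between 7 and 9 the members were lowest, at 3.64% (1.76 to 6.59), against 4.16% and 3.95%.

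**Figure D5:**
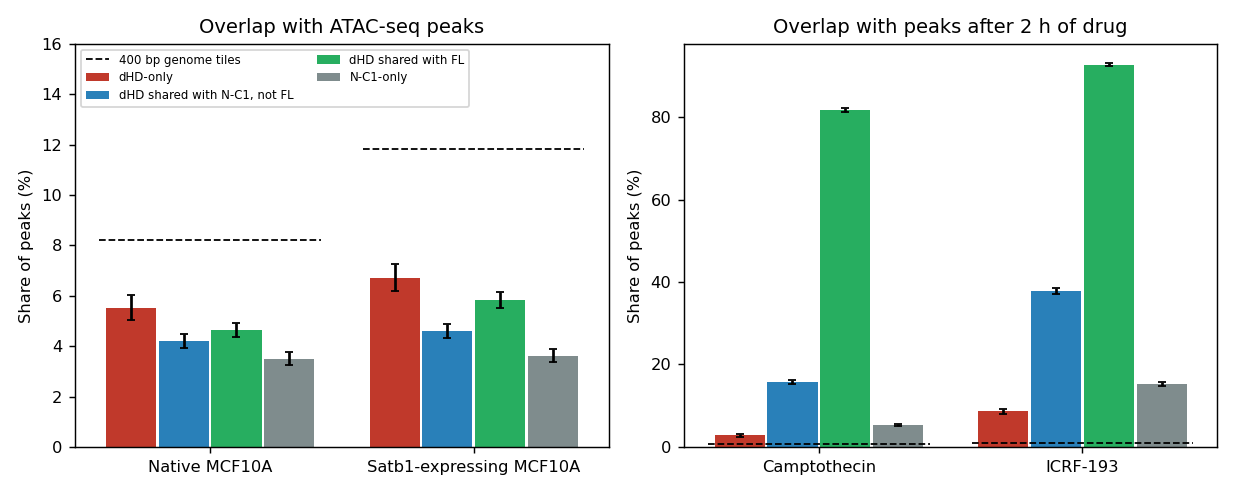
Share of peaks (%, y axis) overlapping ATAC-seq peaks of native and Satb1-expressing MCF10A (left) and peaks of FL Satb1 after 2 h of camptothecin or ICRF-193 (right), for dHD-only sites and 3 other classes. Bars start at 0, error bars are exact 95% binomial intervals, and dashed lines give the share of 400 bp genome tiles, which is above every class for ATAC-seq and below every class for the drugs.

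Open members differed from closed ones in sequence. The 399 in both ATAC-seq lists had an A/T content of 63.7% (63.1 to 64.3), against 67.5% for the 7993 in neither, and 1.64 against 1.76 matches. TGANTCA, the pattern bound by AP-1 factors such as FOS and JUN, was present in 24.6% (20.4 to 29.1) of the open members and 12.99% (12.3 to 13.7) of the closed ones. In tiles it was found in 19.8% of those in native ATAC-seq peaks and 11.5% of those outside all ATAC-seq peaks. GGAATG, the core bound by TEAD factors, was present on either strand in 19.05% and 17.2% of open and closed members. Open members were recovered less often, at 3.01% (1.56 to 5.19) after ICRF-193 against 9.05% (8.43 to 9.70) of closed ones, and they were also poorer in A/T. Of the 806 members in a drug list, 30 also lay in an ATAC-seq peak. The matching count is not given here for the other classes, so the 30 were not read as many or few.

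The 5 strongest members in both ATAC-seq lists were an intronic site of DIP2C (chr10:470815-471745, 8.60) and sites nearest KRTAP5-11, a keratin-associated protein gene (chr11:71329137-71330299, 7.95), the cadherin gene CDH8 (chr16:62075097-62075474, 7.83), CROT, which encodes carnitine octanoyltransferase (chr7:86946802-86947181, 7.65), and ANKEF1 (chr20:10060821-10061238, 7.64). Their numbers of matches were 0, 0, 2, 1 and 1. None of the 5 was recovered after either drug.

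By protein-coding transcripts alone, summits were intergenic in 59.6% (58.6 to 60.6), intronic in 38.4%, exonic in 1.39% and at protein-coding promoters, from 1000 bp upstream to 100 bp downstream of a start, in 0.647% (0.489 to 0.840). The midpoints of tiles were at 55.5%, 40.4%, 2.61% and 1.51%. N-C1-shared peaks had 59.0%, 39.0%, 1.505% and 0.492%, and FL-shared 60.5%, 37.8%, 1.16% and 0.581%. The median distance to a protein-coding start was 93152 bp, against 107542 bp in N-C1-shared and 104319 bp in FL-shared peaks. Coding exons held 29 summits (0.335%, 0.225 to 0.481), against 0.182% of all dHD peaks. Recovered members were more often intergenic, at 73.8% (66.9 to 79.9) of the 187 in both drug lists. Promoters held 5 of the 748 recovered after ICRF-193 (0.668%, 0.217 to 1.55), close to the share of all members. With transcripts of every type in place of protein-coding ones, promoters held 3.14% of all members, 39.95% were intergenic and 54.2% intronic, so whether most lay outside genes turned on the annotation.

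The 56 promoter members had a mean fold enrichment of 4.88 (4.60 to 5.16), against 4.99 in all members. The strongest was at ATP6V1H, a vacuolar ATPase subunit gene, with a fold enrichment of 7.35 and recovery after ICRF-193. The others of the first 5 were at WNK1, a kinase gene of ion transport (chr12:970712-971128, 7.26), the readthrough gene GET1-SH3BGR (chr21:40801106-40801565, 7.13), PRR27 (chr4:71017172-71017585, 7.07) and the ring-finger gene RNF10 (chr12:120971241-120971682, 6.94). None of these 5 overlapped an ATAC-seq peak. Of the 56 promoter members, 12 overlapped peaks of both ATAC-seq lists, against 4.61% of all members. Promoters held 3.01% (1.56 to 5.19) of members in both ATAC-seq lists and 0.513% of those in neither. In tiles they held 8.46% of those in native ATAC-seq peaks and 0.778% of those outside all ATAC-seq peaks.

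Of 19813 protein-coding gene bodies, 2205 (11.1%) held at least 1 member and 93 held 5 or more. The share followed gene length, from 4.43% of genes under 100 kb to 39.0% from 100 to 500 kb and 95.5% of the 66 genes over 1000 kb. The most members were in EYS, which encodes a matrix protein of photoreceptors (13), the orphan nuclear receptor gene ESRRG (12), LINGO2 (12), the lipoprotein receptor gene LRP1B (12) and CCSER1 (11). Members made up 16.5% of the 79 dHD peaks in EYS and 25% of the 48 in ESRRG, against 17.2% over all gene bodies. Per 100 kb, the densest genes with at least 5 members were the E3 ligase gene MIB1 (3.84), GRXCR1 (3.62), GPATCH2 (3.43), the enteropeptidase gene TMPRSS15 (2.31) and ESRRG (1.89). In MIB1, 5 of the 6 dHD peaks were members and no peak was FL-shared.

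Along the chromosomes the members followed the dHD list with some exceptions. Members made up 27.6% of dHD peaks on chromosome 19 and 22.4% on chromosome 16, the highest shares, and 13.1% on chromosome 21. In 553 windows of 5 Mb the median was 2.80 members per Mb. The densest window, chr1:215000001-220000000, held 68 members (13.6 per Mb), among 371 dHD peaks, a share of 18.3%. It contains ESRRG, GPATCH2 and TGFB2. The next were chr1:195000001-200000000 with 48 and chr1:190000001-195000000 with 46. Within 2 Mb of a centromere gap lay 3.58% (3.20 to 3.995) of members, 2.94% of N-C1-shared and 3.39% of FL-shared peaks.

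The gene lists of this tissue were short, so their shares of genes with a member had wide intervals. Among 20 basal mammary genes, 3 held a member, namely EGFR, the epidermal growth factor receptor gene, TP63, a basal transcription factor gene, and LAMA3, a laminin chain gene, with 1 each. Among 20 luminal genes 3 did: the receptor genes ERBB4 with 7, ESR1 with 3 and PRLR with 1. Of 23 genes of epithelial to mesenchymal transition 5 did, led by the growth factor gene TGFB2 and the repressor gene ZEB1 with 3 each and the collagen gene COL1A2 with 1. The 3 members in TGFB2 were 60% of its 5 dHD peaks. Of 24 Hippo and AP-1 genes 2 did, TEAD1 with 2 and the coactivator gene YAP1 with 1. The shares were 15%, 15%, 21.7% and 8.33%, with exact intervals that all included the 11.1% of all genes.

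Among 20 genes of chromatin partners and CUT-homeodomain proteins, 4 held a member (20%, 5.73 to 43.7), ONECUT1 and SATB1 with 1 each among them. Of 25 loci linked to Satb1 in earlier work 3 held a member (12%, 2.55 to 31.2). NRG1 held 3, and EGFR and BCL2, the apoptosis regulator gene, held 1 each. None of 14 topoisomerase and partner genes and none of 21 epidermal differentiation genes held one, with exact upper limits of 23.2% and 16.1%. Over all protein-coding genes the share was 11.1%, and under 100 kb it was 4.43%. The epidermal genes had a median length of 3.17 kb and held 1 dHD peak in all, so few members could lie there. The topoisomerase genes had a median length of 51.5 kb and held 14 dHD peaks. Of 29 large adhesion and synaptic genes, with a median length of 1380 kb, 27 held 164 members in all. These made up 13.7% of the dHD peaks there, with 12 in LRP1B, 11 in DLG2 and 9 in ROBO1. The 27 of 29 (93.1%) compared with 95.5% of all genes over 1000 kb, where members made up 15.7% of dHD peaks.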

How the data were processed

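ChIP-seq peak lists for 5 conditions and ATAC-seq peak lists for 2, 1 per condition and without replicate lists, were analysed as deposited. The authors trimmed reads with cutadapt, aligned them to hg19 with Bowtie2 and called peaks with MACS2, with broad peaks for ATAC-seq. Each deposited row gives a score, the fold enrichment (a ratio to local background), and −log10 p-value and −log10 q-value. Read depth cannot be read from these values, and whether duplicates were pooled is not given in the sources used here.

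Peaks were overlapped by at least 1 bp. YTAWTAR was counted in 400 bp and A/T content in 200 bp at the peak midpoint, with flanks 1000 to 2000 bp away, and hg19 was tiled in 400 bp windows. Genes were GENCODE 44 mapped to GRCh37. Python 3.11.15, pandas 2.3.3, numpy 2.4.6, scipy 1.17.1, pysam 0.24.0 and matplotlib 3.10.9 were used. The overlap step was checked against bedtools on the dHD and FL lists, and the motif step on simulated sequence with planted matches. With 1 list per condition there was no test between conditions.

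A site took the name of the protein-coding gene holding its summit, otherwise of that with the nearest start. Sites were named by rank: the 5 of largest fold enrichment in all, in both drug lists, at promoters and in open chromatin, the 3 with most matches, and 2 on each side of the rule. Genes were the 5 with most sites, the 5 densest holding at least 5, and the 3 leading genes per list. One gene that this rule names is not reported here. Members and gene lists were chosen with earlier results of these data known. Alternatives covered overlap, peak strength, window, motif and annotation. Mouse lists were not used here.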

Additional observations from a re-analysis of the deposited data

How the results depend on the processing

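The comparison of intergenic with intronic shares turned with the settings below: fewer members were intergenic than intronic with transcripts of every type. The native ATAC-seq share of members with a fold enrichment of at least 5 was 4.35%. The 4.6% of all dHD peaks was not cut at 5, so these values were not set against each other. The A/T difference from FL-shared peaks kept its sign under every alternative tried. Raising the minimum fold enrichment to 5 left 3631 sites, with a median width of 378 bp, 1.78 matches, an A/T content of 67.6%, a step over the flanks of 5.97 points, a difference from FL-shared peaks of −3.45 points, ATAC-seq overlap of 4.35% in native and 4.85% in Satb1-expressing cells, and recovery of 4.16% after camptothecin and 11.8% after ICRF-193. Requiring 50% reciprocal overlap for sharing gave a width of 358 bp, a step of 5.58 points, a difference of −4.27 points and recovery of 6.13% and 12.8%. Leaving out sites within 1000 bp of an FL or N-C1 peak gave a step of 5.94 points. Counting matches in 150 bp gave 67.7% of sites with a match and a mean of 0.979, centring on the summit a mean of 1.71, and CTAATAR 57.4% and 0.754. A/T content in 100 bp was 67.9%, with a step of 6.44 and a difference of −4.63 points, and in 400 bp 65.9%, 4.42 and −3.23. ATAC-seq overlap was 3.47% and 4.68% with the summit inside the peak, and 4.07% and 4.69% with a −log10 q of at least 5. Recovery after ICRF-193 was 7.94% at 50% reciprocal overlap, and with treated peaks of fold enrichment 5 or more it was 1.32% after camptothecin and 4.47% after ICRF-193. Promoters held 2.30% of sites with 2000 bp on either side of a start, and with transcripts of every type they held 3.14%, with 39.95% intergenic and 54.2% intronic. With fold enrichment from 4 to under 6 in both groups, an alternative chosen after seeing the data, the A/T difference from FL-shared peaks was −4.42 points. The cause of these shifts was not tested. No paired analysis was possible because each condition had a single peak list and no test was run. Depth was not known, so absence of a call is no measure of absent binding.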
